A study of Mus musculus with 10 samples.

Results

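Transcription elongation factors and the chromatin enzymes linked to them were followed through 41 genes, taken by symbol from a list of the PAF complex, FACT, DSIF and its partners, P-TEFb, the super elongation complex, TFIIS, NELF and the methyltransferases that act after ubiquitination of histone H2B. All 41 genes were present in both tables of the series, which held 17816 genes at day 7 and 20007 genes in adult testis. RNA-seq was done on untreated mouse samples. The first table covered Sertoli cells of 7-day-old mice in 4 samples, 2 of them Rnf20 Flox/Flox controls that the labels call WT and 2 of them Amh-Rnf20-/-. The second table held 6 samples of adult testis, 3 labelled WT and 3 labelled RNF20 conditional knockout, an experiment that the text of the study does not describe. In Amh-Rnf20-/- mice, Cre expressed from the Amh promoter removes floxed exons of Rnf20 in Sertoli cells, the supporting cells of the seminiferous tubules, while germ cells, Leydig cells and other testis cells keep the gene. The day 7 cells were digested out of the tubules, grown in serum and passaged before use, so they were adherent cultured cells rather than fresh tissue. The growth field mentions adult tissue throughout, so the age of the Sertoli cells was taken from the titles and the study. The question addressed here is how the genes of the elongation machinery were expressed in samples of the Rnf20 knockout compared with controls.

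RNF20 is the E3 ligase that places a single ubiquitin on lysine 120 of histone H2B, a mark laid down behind RNA polymerase II. The polymerase pauses soon after it starts, held by DSIF and NELF, and is released when P-TEFb, a kinase made of CDK9 and a cyclin T, phosphorylates these factors and the polymerase tail. HEXIM1 and the RNA-binding protein LARP7 keep a reserve of P-TEFb inactive on the 7SK RNA, and the super elongation complex carries active P-TEFb to genes. The PAF complex rides on the released polymerase and brings the RNF20 ligase to chromatin, FACT moves H2A-H2B dimers out of its way, and TFIIS restarts a polymerase that has slipped backwards. The ubiquitin mark in turn favours methylation of histone H3 by DOT1L and by the KMT2 enzymes. Germ cells use several testis-specific forms of this machinery, among them BRDT and TCEA2.

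Libraries of the day 7 cells held 17477282 to 17705359 estimated counts, and those of adult testis held 15431935 to 16574160. Rnf20 itself was at 16.6 and 16 FPKM, fragments per kilobase scaled to the library total, in the day 7 controls and at 10.3 and 12.6 FPKM in the knockout cells (log2 fold change -0.49 ± 0.12 (SE), adjusted p = 0.222). In adult testis Rnf20 was at 4.89, 3.32 and 4.09 FPKM in the controls and 9.16, 5.76 and 9.85 FPKM in the samples labelled knockout (log2 fold change 0.12 ± 0.27 (SE), adjusted p = 0.688). By total counts Rnf20 was called higher there (0.97, adjusted p = 0.0168), and by the median ratio of counts it was not called (-0.07, adjusted p = 0.805). No scaling called it lower, and every adult direction below rests on the labels. Of 16 Sertoli cell markers, 13 were at 1 FPKM or more in every day 7 sample, and the summed level of all 16 was 2618 to 2841 FPKM in the controls and 1859 to 2114 FPKM in the knockout cells. The 7 markers of peritubular myoid cells summed to 1969 to 2090 FPKM in the day 7 controls and to 3645 to 3694 FPKM in the knockout cells, with all 7 higher in both knockout samples. The 6 stroma markers were likewise all higher, at 2152 to 2236 FPKM in sum against 3306 to 3920 FPKM. The 6 Leydig cell markers summed to 149 to 156 FPKM against 205 to 301 FPKM, and 3 of the 4 high enough to be tested were higher. The 12 spermatogonium markers summed to 239 to 245 FPKM against 155 to 171 FPKM, and 10 of the 11 tested were lower. Of the 15 Sertoli cell markers tested, 9 were lower and 1 was higher in both knockout samples. On scaled counts, 24.8% of all genes tested were higher and 26.1% were lower in both. The part of these cell types in the day 7 values below was not tested. The 2 day 7 knockout samples differed from each other, and 1 labelled knockout stood apart in adult testis. At day 7, the counts of the knockout pair differed by a chi-square of 34.3 per degree of freedom against 2.65 for the control pair. Knockout sample 1 held 14 FPKM of the Sertoli cell gene Cldn11 and knockout sample 2 held 150.4 FPKM. Other Sertoli cell markers went the other way, among them Ctsl, at 882 and 729 FPKM, and Kitl, at 28.4 and 18.7 FPKM. In adult testis, labelled knockout 1 held 1.2 FPKM of Sox9, which marks Sertoli cells, against 9.86 and 12.7 FPKM in labelled knockouts 2 and 3. The adult controls held 2.34, 1.37 and 1.77 FPKM of it. Not all Sertoli cell markers followed Sox9. In labelled knockouts 1, 2 and 3, Inha was at 766, 245 and 368 FPKM and Gata4 at 53.5, 57.7 and 54.9 FPKM. Counts of calls without these libraries are given below.

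In adult testis the machinery did not move as a block. With TMM scaling, which sets the typical gene to no change, 10 of the 41 genes were higher and 18 were lower in the labelled knockouts by edgeR's quasi-likelihood test at an adjusted p under 0.05, where 40.9% of all 15919 genes tested were called higher and 40.6% were called lower. The median log2 fold change was -0.32 over the 41 genes and 0.01 over all genes. TMM-scaled counts of the groups did not overlap for 13 genes with the labelled knockouts higher and for 20 with them lower, where 42.4% and 43.1% of all genes did so. FPKM did not overlap for 25 genes with the labelled knockouts higher and for 10 with them lower, against 54.9% and 32.4% of all genes. At the thresholds of the study, a change over 2-fold with an adjusted p under 0.001, 4 genes were higher and 9 lower, against 23.0% and 23.7%. Changes over 2-fold were found in 15 of the 41 genes and in 71.3% of all genes. At day 7 none of the 40 genes tested was called, as was the case for all 12880 genes tested, whose background was 0% at adjusted p under 0.05. At an unadjusted p under 0.05 edgeR gave 2 of the 40 genes, Ctr9 and Dot1l, and 15.5% of all genes, while DESeq2 and limma called none of the 40 after adjustment. DESeq2 called 4.50% of all genes in either direction.

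In adult testis the marker genes of several cell types differed widely between the groups, and many of the smaller directions differed between scalings. Spermatid markers summed to between 126868 and 195588 FPKM in the controls and to between 16.7 and 145 FPKM in the labelled knockouts, with all 12 called lower by TMM, and Prm1 and Acrv1, which define spermatids, were at 0 in labelled knockout 1. The 12 spermatocyte markers, 8 of which were called lower by TMM, summed to 5295 to 5506 FPKM against 3.32, 331 and 478 FPKM, with Spo11 and Pgk2 at 0 in labelled knockout 1. The 6 Leydig cell markers, all called higher, summed to between 3997 and 5602 FPKM in the controls and to between 63070 and 87434 FPKM in the labelled knockouts, and the 6 stroma markers, all called higher, summed to 40.5 to 53.4 FPKM and to 1303 to 3390 FPKM. All 6 macrophage markers, at 64.4 to 76.8 FPKM against 1741 to 2788 FPKM, and 4 of 5 endothelial markers, at 2.08 to 2.91 FPKM against 24.2 to 34.3 FPKM, were also called higher. Spermatogonium markers, with 2 called higher and 4 lower, summed to 271 to 303 FPKM and to 49.0, 322 and 469 FPKM, and peritubular myoid markers, with 5 called higher and 1 lower, to 299.5 to 372 FPKM and to 239.7 to 451 FPKM. Of the 16 Sertoli cell markers 8 were called higher, 7 were not called and Rhox5 was called lower, and their sum was 894 to 1142 FPKM in the controls and 3388, 7648 and 8948 FPKM in the labelled knockouts. In bulk samples such as these, fewer cells of a type and less RNA per cell cannot be told apart, and the part of these cell types in the changes below was not tested. Over all genes the median was 0.87 in log2 fold change when libraries were set equal by total counts and -0.19 by the median ratio of counts. Of the 41 genes, 23 were higher and 8 lower by total counts, against 54.1% and 30.0% of all genes, and 9 were higher and 21 lower by the median ratio, against 37.6% and 43.5%. FPKM are set by the library total, so the ratios of the FPKM given below follow the total-count scaling and exceed the TMM log2 fold changes beside them. A direction is therefore called firm here only for the 17 genes called the same way under all 3 scalings, 9 higher and 8 lower, where 37.6% of all genes were called higher and 30.0% lower under all 3. The 9 that rose were Cdk9, Ccnt2, Hexim1, Aff1, Aff4, Tcea3, Nelfb, Kmt2a and Kmt2d, and the 8 that fell were Larp7, Ell2, Mllt1, Tcea2, Nelfe, Brdt, Dot1l and Ash2l. Of the 9, Aff1 and Kmt2a passed the filter of 0.5 FPKM only through the labelled knockouts, where they were high. All 17 kept their direction and an adjusted p under 0.05 under each alternative scaling, filter, tool and left-out sample.

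**Figure D1:**
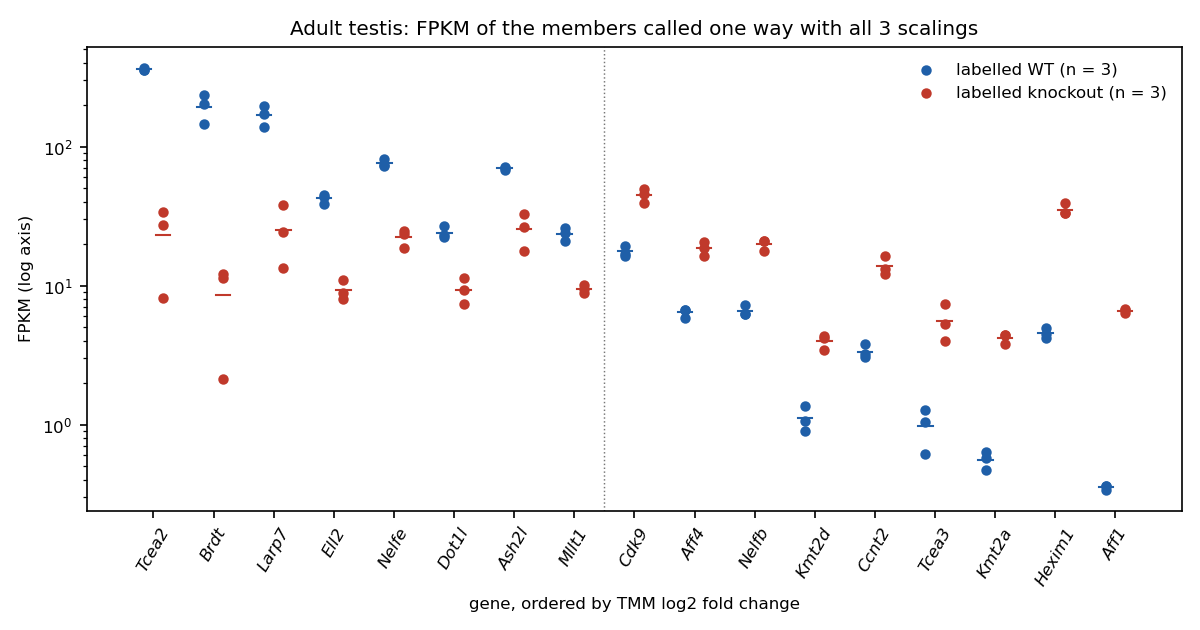
FPKM (log axis) of the 17 genes called one way under all 3 scalings in adult testis, with 1 point per sample (3 labelled WT in blue, 3 labelled knockout in red) and a line at each group mean. The groups did not overlap for any of the 17 genes. The largest gaps were those of Tcea2 and Brdt among the 8 that fell and of Aff1 among the 9 that rose. Every control of Aff1 lay under the filter of 0.5 FPKM, which the gene passed only through the labelled knockouts.

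The factors that fell most were among the most abundant in the adult controls. On the FPKM scale, which allows for gene length, the highest control means of the 41 genes were those of Tcea2 (361 FPKM), Brdt (194 FPKM), Larp7 (169 FPKM), Nelfe (76.0 FPKM) and Ash2l (69.8 FPKM), and all 5 were among the 8 genes that fell. In the labelled knockouts the highest means were those of Supt4a (91.5 FPKM), Wdr61 (58.2 FPKM), Ssrp1 (48.9 FPKM), Tcea1 (48.5 FPKM) and Cdk9 (44.9 FPKM). These were also the 5 highest in the day 7 control cells, where Ssrp1 led with 107 FPKM. Across the 41 genes, Spearman's rho between mean levels was 0.81 for the day 7 controls and the adult labelled knockouts, 0.53 for the day 7 controls and the adult controls, and 0.63 for both adult groups. These correlations are descriptions across genes of separately normalized tables, and genes are not independent replicates.

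TFIIS, the factor that rescues backtracked polymerase, held members that moved far in both directions. Tcea2, the testis-enriched form (chr2:181680297-181688067, RefSeq on GRCm38.p6), was at 358, 367 and 356 FPKM in the controls and at 8.19, 27.2 and 34 FPKM in the labelled knockouts (log2 fold change -4.79 ± 0.51 (SE), adjusted p = 0.00025). The 3 controls lay close together and far above the highest labelled knockout. Tcea3, which is expressed in fewer tissues than Tcea1, was at 0.61, 1.28 and 1.04 FPKM in the controls and rose to 7.34, 5.33 and 3.96 FPKM (log2 fold change 1.65 ± 0.43 (SE), adjusted p = 0.0118). Its groups did not overlap. Tcea1, the form found in most cells, was at 24.1, 20.6 and 26.6 FPKM and 50.8, 45.7 and 48.9 FPKM, with a log2 fold change of 0.20 (adjusted p = 0.193) by TMM and 1.05 (adjusted p = 0.000578) by total counts. The lowest and highest log2 fold changes of the family, those of Tcea2 and Tcea3, were 6.44 apart by TMM, close to the 6.40 of the super elongation complex.

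BRDT, the bromodomain protein of male germ cells that reads acetylated histones, showed the other very large fall. Brdt (chr5:107331116-107387061) was at 233, 146 and 201 FPKM in the controls and at 2.11, 11.3 and 12 FPKM in the labelled knockouts (log2 fold change -4.69 ± 0.48 (SE), adjusted p = 0.000217). Labelled knockout 1 was the lowest of the 3, and without it the log2 fold change was -4.21. Polr2a, which encodes the largest subunit of RNA polymerase II, was at 11.6, 9.94 and 11 FPKM and 15.2, 20.5 and 24 FPKM. Its log2 fold change was 0.01 (adjusted p = 0.950) by TMM and 0.88 (adjusted p = 0.00586) by total counts, and the TMM-scaled counts of its groups overlapped.

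Among the members in P-TEFb and its inhibitory particle, Cdk9, Ccnt2 and Hexim1 rose while Larp7 fell. Cdk9, the kinase itself (chr2:32705782-32712784), was at 19.4, 17 and 16.4 FPKM in the adult controls and rose to 39.1, 45.8 and 49.8 FPKM in the labelled knockouts (log2 fold change 0.53 ± 0.13 (SE), adjusted p = 0.00875). Ccnt2, one of its cyclins (chr1:127774164-127804837), rose from 3.78, 3.04 and 3.21 FPKM to 13.1, 12 and 16.4 FPKM (log2 fold change 1.19 ± 0.15 (SE), adjusted p = 0.000523). Ccnt1, the other cyclin, was at 5.23, 4.89 and 4.58 FPKM and 6.25, 6.98 and 8.45 FPKM and was not called by TMM (log2 fold change -0.08 ± 0.12 (SE), adjusted p = 0.548), while total counts gave 0.78 (adjusted p = 0.00180). Every labelled knockout thus held more Cdk9 and Ccnt2 than any control. Hexim1, which inhibits P-TEFb (chr11:103116325-103119725), rose from 4.91, 4.2 and 4.5 FPKM to 39, 33.4 and 33 FPKM (log2 fold change 2.11 ± 0.15 (SE), adjusted p = 5.92e-05). Larp7, which stabilizes the 7SK RNA that HEXIM1 needs (chr3:127536714-127553349), fell from 172, 139 and 195 FPKM to 13.3, 24.4 and 37.7 FPKM (log2 fold change -3.62 ± 0.39 (SE), adjusted p = 0.000253). The 3 labelled knockouts differed among themselves in Larp7, with labelled knockout 1 lowest, and without it the log2 fold change was -3.22. Hexim1 and Larp7 lay 5.73 apart in log2 fold change, the widest range within this group of 7 genes. Hexim2 and Mepce, 7SK genes from the separate list of other pathway genes, were looked at after their values were seen. Hexim2 fell from 29.3, 24.4 and 19.6 FPKM to 5.98, 7.59 and 7.92 FPKM (log2 fold change -1.96 by TMM, -1.10 by total counts). Mepce fell as well (-1.45 by TMM, -0.60 by total counts). Both were called lower under all 3 scalings, so Hexim1 and Hexim2 went opposite ways.

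The 2 kinases that phosphorylate the polymerase tail later in the gene had directions set by the scaling. Cdk12 was at 5.4, 4.8 and 5.13 FPKM in the controls and 3.57, 4.55 and 5.55 FPKM in the labelled knockouts, with a log2 fold change of -0.72 (adjusted p = 0.00118) by TMM and 0.14 (adjusted p = 0.391) by total counts. Cdk13 was at 13, 11.7 and 12.8 FPKM and 14.3, 18.2 and 19.2 FPKM, with -0.34 (adjusted p = 0.0281) by TMM and 0.52 (adjusted p = 0.0121) by total counts. The TMM call of Cdk13 was lost without labelled knockout 1, at -0.15 (adjusted p = 0.192).

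The super elongation complex, which joins P-TEFb to ELL proteins on AFF scaffolds, had members that moved far in either direction. Aff1, a scaffold (chr5:103692362-103855322), was at 0.36, 0.34 and 0.36 FPKM in the controls, the lowest mean of the 41 genes there, and rose to 6.83, 6.66 and 6.32 FPKM (log2 fold change 3.36 ± 0.14 (SE), adjusted p = 2.73e-05). Every control of Aff1 lay under the 0.5 FPKM filter, which the gene passed only through the labelled knockouts. Aff4, the scaffold in most cells, rose from 6.71, 5.87 and 6.64 FPKM to 16.5, 18.7 and 20.7 FPKM (log2 fold change 0.69 ± 0.12 (SE), adjusted p = 0.00176). Both sets of values were tight within groups. Ell2, an elongation factor best known from plasma cells (chr13:75707484-75772361), fell from 44.9, 38.5 and 43.6 FPKM to 11, 7.98 and 8.83 FPKM (log2 fold change -3.04 ± 0.19 (SE), adjusted p = 4.52e-05). Mllt1, a reader of acylated histones that is also called ENL (chr17:56892608-56935509), fell from 20.9, 23.7 and 26.1 FPKM to 10.1, 8.91 and 9.42 FPKM (log2 fold change -2.17 ± 0.15 (SE), adjusted p = 6.01e-05). For Ell2 and Mllt1 the fall was no deeper in labelled knockout 1 than in the others. Ell was at 18.6, 10.5 and 10 FPKM and 14.7, 13.8 and 13.9 FPKM, overlapping in FPKM, with -0.73 (adjusted p = 0.0327) by TMM and 0.11 (adjusted p = 0.691) by total counts. Mllt3, the paralog of Mllt1, was at 2.48, 1.65 and 2.09 FPKM and 1.85, 2.09 and 1.6 FPKM, with -0.95 (adjusted p = 0.00524) by TMM and -0.10 (adjusted p = 0.672) by total counts. Ell3, described in testis and early embryos, was at 1.15, 0.78 and 1.08 FPKM and 0.22, 1.05 and 1.73 FPKM and was not called (log2 fold change -0.88 ± 0.64 (SE), adjusted p = 0.238). In the annotation 65.6% of the exonic bases of Ell3 are shared with Serinc4 on the same strand, so its reads are uncertain.

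NELF, the factor that holds paused polymerase, split between its subunits. Nelfe, the RNA-binding subunit (chr17:34850391-34856372), fell from 73.8, 81.1 and 73.1 FPKM to 18.8, 24.7 and 23.4 FPKM (log2 fold change -2.66 ± 0.15 (SE), adjusted p = 3.64e-05). Nelfb (chr2:25199712-25211489) rose from 7.29, 6.29 and 6.24 FPKM to 20.9, 17.6 and 21 FPKM (log2 fold change 0.73 ± 0.14 (SE), adjusted p = 0.00272). In neither subunit did the groups overlap. Nelfa was at 12.8, 12.9 and 13.6 FPKM and 11.8, 8.71 and 11.2 FPKM and was lower by TMM (log2 fold change -1.17 ± 0.16 (SE), adjusted p = 0.000703), while total counts gave -0.31 (adjusted p = 0.0993). Nelfcd had a log2 fold change of 0.25 (adjusted p = 0.0955) by TMM and 1.10 (adjusted p = 0.000327) by total counts. Nelfe and Nelfb were 3.39 apart. Supt5, the large subunit of DSIF, with which NELF acts, was at 37.3, 35 and 37.5 FPKM and 31.6, 45.6 and 57.4 FPKM, with -0.55 (adjusted p = 0.0396) by TMM and 0.32 (adjusted p = 0.237) by total counts. Supt4a, the small subunit of DSIF, had 0.15 (adjusted p = 0.246) by TMM and 1.01 (adjusted p = 0.000451) by total counts.

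The histone methyltransferases also parted. Dot1l, which methylates lysine 79 of H3 and is stimulated by the ubiquitin mark (chr10:80755101-80795461), fell from 23, 22.3 and 26.8 FPKM to 7.4, 9.33 and 11.3 FPKM (log2 fold change -2.25 ± 0.17 (SE), adjusted p = 7.33e-05). Ash2l, a subunit shared by the enzymes that methylate lysine 4 of H3 (chr8:25816000-25847694), fell from 67.7, 71.2 and 70.4 FPKM to 17.8, 26.3 and 32.7 FPKM (log2 fold change -2.17 ± 0.18 (SE), adjusted p = 9.24e-05). Kmt2a, one of these enzymes (chr9:44803355-44881352), rose from 0.63, 0.47 and 0.57 FPKM to 4.44, 3.78 and 4.41 FPKM (log2 fold change 2.07 ± 0.15 (SE), adjusted p = 6.4e-05). Control 2 lay under 0.5 FPKM, so Kmt2a passed the filter only through the labelled knockouts. Kmt2d, another (chr15:98831669-98874077), rose from 1.06, 0.9 and 1.36 FPKM to 3.45, 4.21 and 4.33 FPKM (log2 fold change 0.97 ± 0.16 (SE), adjusted p = 0.00166). None of these 4 genes overlapped between groups. Other genes of these complexes, named after their values were seen, did not follow one pattern. Among the enzymes, Kmt2c rose under all 3 scalings (1.84 by TMM, adjusted p = 0.0001), Kmt2b was lower by TMM (-0.38, adjusted p = 0.0202) and higher by total counts (0.48, adjusted p = 0.0203), and Setd1a was not called by TMM (0.42, adjusted p = 0.0708) but higher by total counts (1.28, adjusted p = 0.00185). Among the shared subunits, Rbbp5 rose (1.02, adjusted p = 0.00125) and Dpy30 fell (-2.47, adjusted p = 4.52e-05). Wdr5, the second shared subunit, had -0.24 (adjusted p = 0.0853) by TMM and 0.62 (adjusted p = 0.00571) by total counts, and the median ratio called it lower (-0.44, adjusted p = 0.00847). Setd2, which methylates lysine 36 of H3, had 0.20 (adjusted p = 0.147) and 1.06 (adjusted p = 0.000569).

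The factors that travel with the elongating polymerase, PAF, FACT and SPT6, showed changes under 2-fold by TMM in PAF, FACT and Supt6, and for most of these genes the sign differed between scalings. By total counts Wdr61 and Supt6 exceeded 2-fold, and Wdr61 was above 0 under all 3 scalings. Leo1 was at 15.3, 15.3 and 15.8 FPKM in the controls and 16.9, 17.7 and 21.5 FPKM in the labelled knockouts, with -0.60 (adjusted p = 0.00301) by TMM and 0.26 (adjusted p = 0.112) by total counts. Ctr9, the scaffold of PAF, was at 16.1, 14.2 and 17.9 FPKM and 15.8, 21.5 and 26.2 FPKM, with -0.47 (adjusted p = 0.0463) and 0.40 (adjusted p = 0.129). The median ratio called both lower. The call of Ctr9 was lost in each fit that left out 1 sample, at -0.20 (adjusted p = 0.133) without labelled knockout 1. Wdr61 was at 26, 25.9 and 22.6 FPKM and 51.7, 55.6 and 67.3 FPKM, with 0.36 (adjusted p = 0.0416) and 1.23 (adjusted p = 0.000415), and 33.9% of its exonic bases overlap Dnaja4 on the opposite strand. Paf1, Cdc73 and Rtf1, which links PAF to H2B ubiquitination, were not called by TMM and lay between -0.33 and -0.09. By total counts Cdc73 (0.54, adjusted p = 0.0385) and Rtf1 (0.78, adjusted p = 0.0140) were called higher, and by the median ratio Paf1 and Cdc73 were called lower. The 6 PAF genes spanned 0.96 in log2 fold change, against 6.40 for the 7 genes of the super elongation complex.

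Ssrp1, the smaller FACT subunit, was at 34.5, 32 and 41.1 FPKM and 53.2, 44.5 and 49 FPKM, with -0.40 (adjusted p = 0.0490) by TMM and 0.45 (adjusted p = 0.0293) by total counts, so it was called in both directions. The TMM calls of Ssrp1, Supt5, Wdr61 and Ctr9 were lost with the replicate block and in at least 5 of the 6 fits that left out 1 sample. Supt16, the larger subunit, had -0.15 (adjusted p = 0.489) and 0.71 (adjusted p = 0.0212). Iws1, a partner of SPT6, was lower in every labelled knockout, at 12.6, 12.2 and 12.4 FPKM against 4.5, 7.51 and 10.7 FPKM (log2 fold change -1.19 ± 0.22 (SE), adjusted p = 0.00243), but total counts did not call it (-0.32, adjusted p = 0.267). Supt6 itself had 0.16 (adjusted p = 0.257) by TMM and 1.02 (adjusted p = 0.000711) by total counts.

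**Figure D2:**
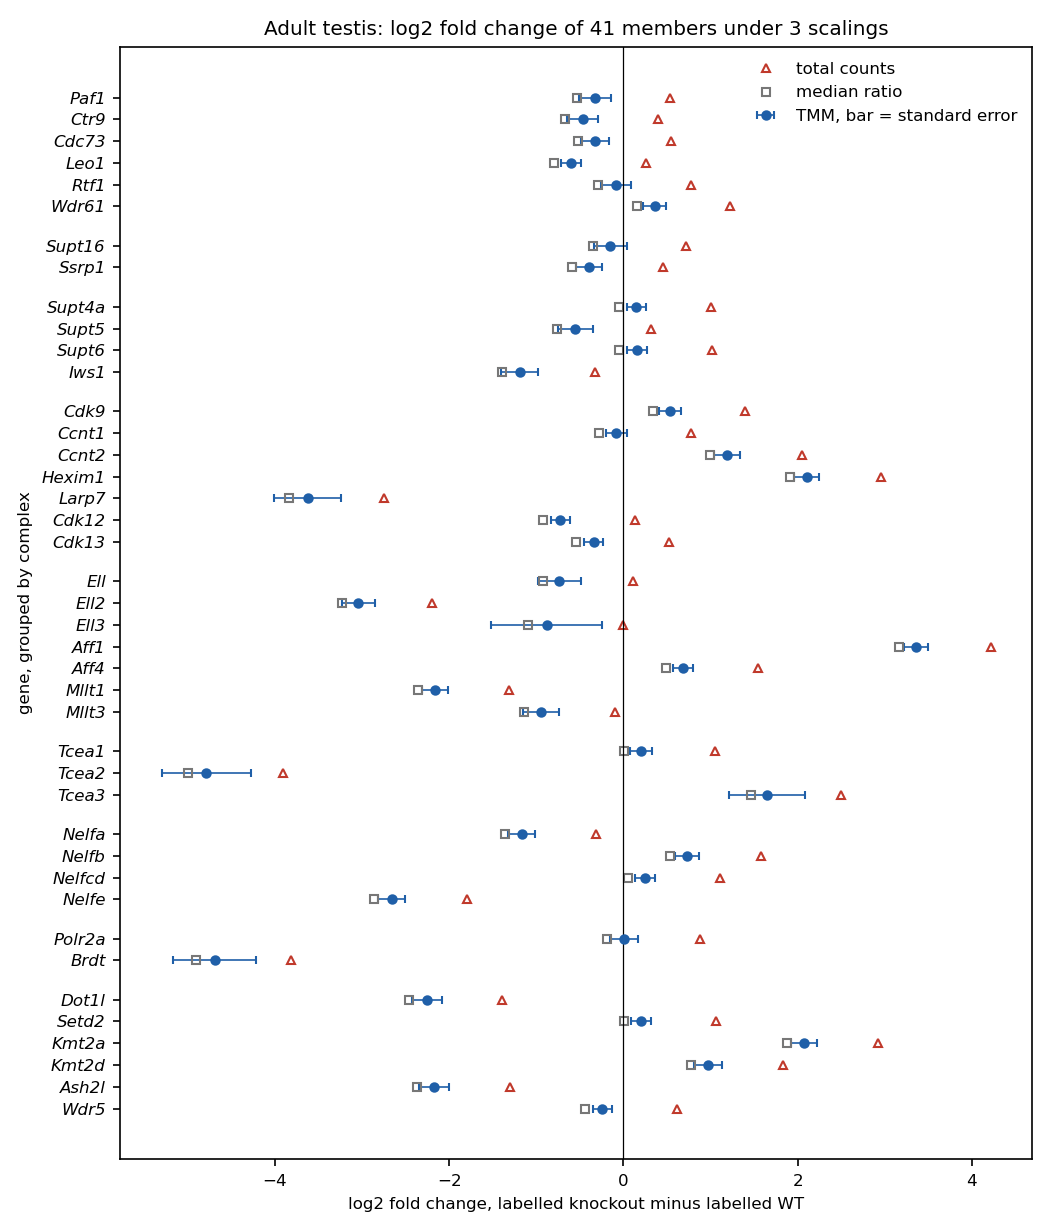
Log2 fold change (labelled knockout minus labelled WT, adult testis, 3 samples per group) of the 41 genes, grouped by complex, with TMM scaling (blue circles, bars are standard errors), total counts (red triangles) and the median ratio (grey squares). The genes of PAF and FACT lie near 0 on TMM and to the right of 0 by total counts, while Tcea2, Brdt, Larp7, Ell2 and Nelfe lie left of 0 and Aff1, Hexim1 and Kmt2a right of 0 under every scaling.

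The deepest falls were uneven among the 3 labelled knockouts. On the log2(FPKM + 0.1) scale, Tcea2 was -5.44, -3.72 and -3.41 relative to the mean of the controls in labelled knockouts 1, 2 and 3. For Brdt these differences were -6.43, -4.05 and -3.97. For Aff1 they were 3.94, 3.90 and 3.82, and for Hexim1 3.08, 2.86 and 2.84, so these 2 rises were nearly alike in the 3 samples. Labelled knockout 1 was the lowest of the 3 for 6 of the 8 genes that fell and for 27 of the 41 genes. The same sample held the least summed FPKM of spermatocyte markers, at 3.32, and of spermatid markers, at 16.7, and the part of that in the order of the samples was not tested. Without it, 15 of the 41 genes were called higher and 16 lower, against 45.1% and 41.1% of all genes. The genes then called higher that were not called with it were Supt4a (0.32, adjusted p = 0.0367), Supt6 (0.31, adjusted p = 0.0168), Nelfcd (0.34, adjusted p = 0.0325), Polr2a (0.27, adjusted p = 0.0309) and Setd2 (0.36, adjusted p = 0.0145). Tcea2 then stood at -4.29, Dot1l at -2.02, Ash2l at -1.92, Nelfe at -2.45 and Aff1 at 3.43 in log2 fold change.

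**Figure D3:**
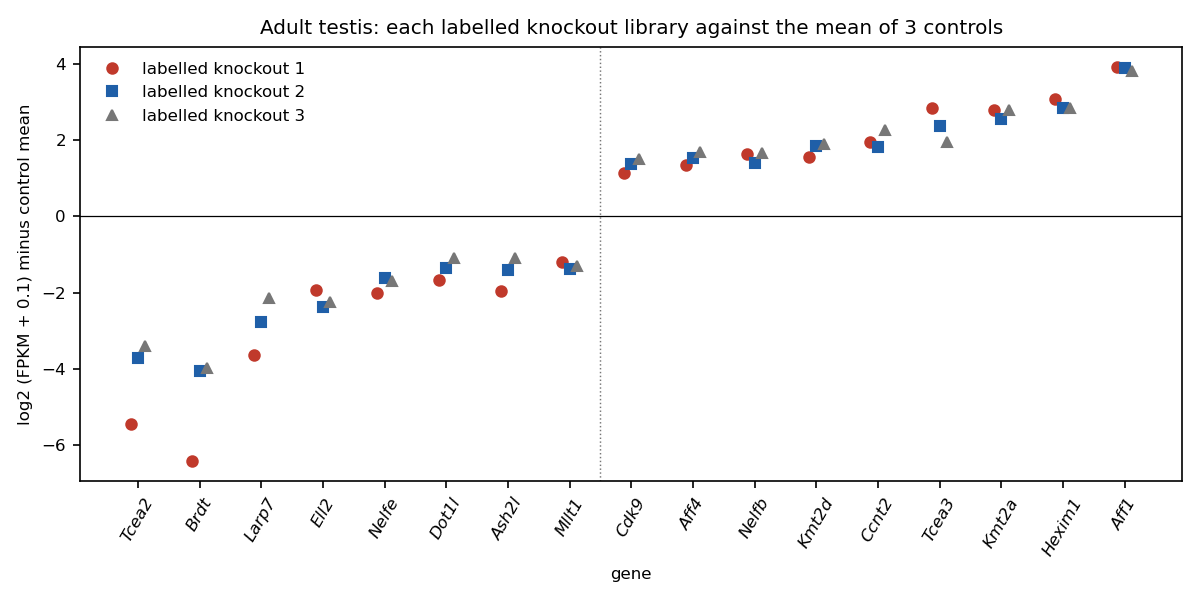
Log2(FPKM + 0.1) of each labelled knockout library minus the mean of the 3 controls, for the 8 genes that fell (left) and the 9 that rose (right) in adult testis. Labelled knockout 1 lies lowest for 6 of the 8 genes that fell, with Tcea2 and Brdt farthest apart between samples.

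Paralogs were compared within each library, as ratios of FPKM after 0.1 was added to each value. Such ratios depend little on the scaling between libraries, but the added 0.1 shrinks those of low genes such as Aff1 and Kmt2a. In adult testis the groups did not overlap for 8 of 9 pairs, 5 higher and 3 lower in the labelled knockouts, each with an exact two-sided permutation p of 0.1, the smallest that 3 against 3 samples can give, and 0.113 adjusted over the 9 pairs. Of single genes, 42.4% did not overlap with the labelled knockouts higher and 43.1% with them lower, and the share for other gene pairs was not computed. The log2 ratio of Tcea2 to Tcea1 was 3.89, 4.15 and 3.74 among controls, compared with -2.62, -0.75 and -0.52 among labelled knockouts. Tcea2 was thus the major form in every control and the minor form in every labelled knockout. For Ell2 over Ell the ratio was 1.27, 1.86 and 2.11 among controls, compared with -0.42, -0.78 and -0.65 among labelled knockouts, and for Ccnt1 over Ccnt2 it was 0.46, 0.67 and 0.50 and -1.06, -0.78 and -0.94. Each of these 3 pairs changed sign, so that the more abundant partner was exchanged.

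For the 5 pairs whose ratio was higher, the mean difference in log2 ratio was 2.37 for Aff1 over Aff4, 1.37 for Tcea3 over Tcea1, 1.15 for Mllt3 over Mllt1, 0.94 for Kmt2a over Kmt2d and 0.64 for Cdk13 over Cdk12. Aff4, Tcea1, Mllt1 and Cdk13 stayed the more abundant partner in every adult sample, while Kmt2a and Kmt2d were close to each other in the labelled knockouts. Only Ell3 over Ell overlapped (-0.49, exact permutation p = 0.9).

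**Figure D4:**
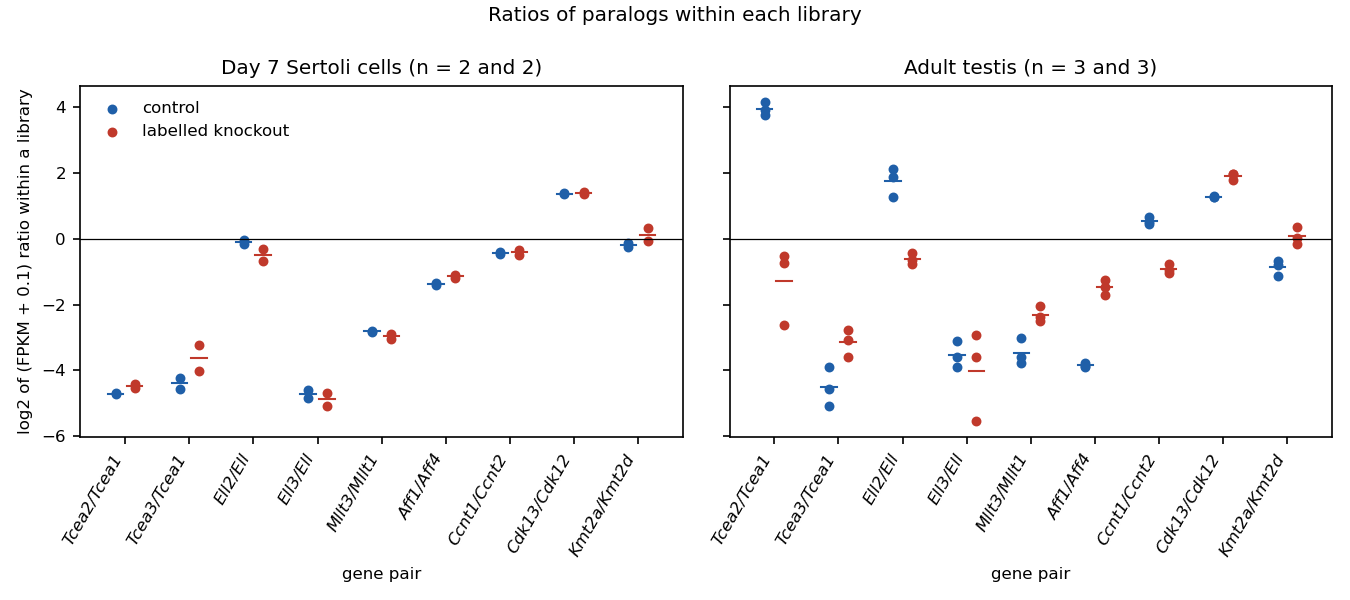
Log2 ratio of (FPKM + 0.1) of 9 gene pairs within each library, at day 7 (left, 2 control and 2 knockout samples) and in adult testis (right, 3 and 3), with lines at group means. In adult testis Tcea2/Tcea1, Ell2/Ell and Ccnt1/Ccnt2 lie above 0 in the controls and below 0 in the labelled knockouts, while at day 7 the group means differ by at most 0.78, for Tcea3/Tcea1.

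Promoter sequence was read for genes with the largest changes called under all 3 scalings, to set genes that fell beside genes that rose. In the table of RefSeq promoters on GRCm38.p6 used here, 33 of the 41 genes were matched, and Tcea2, Nelfe and Ash2l were among the others. The 250 bases before a start listed by RefSeq are printed 5′ to 3′ for 3 genes that fell and 2 that rose, chosen after their values were seen. They are Larp7 (chr3:127553350-127553599, minus strand), Ell2 (chr13:75707234-75707483, plus strand), Brdt (chr5:107330944-107331193, plus strand, before a start that lies inside the bounds of the gene given above, so that the window runs into the gene), Hexim1 (chr11:103116075-103116324, plus strand) and, before 1 of its 2 listed starts, Aff1 (chr5:103753912-103754161, plus strand). Capitals mark the motifs searched on both strands, which were the cyclic AMP response element TGACGTCA, the E-box CACGTG, the CCAAT box CCAAT, which reads ATTGG on the other strand, and the TATA box TATAAA.
Larp7: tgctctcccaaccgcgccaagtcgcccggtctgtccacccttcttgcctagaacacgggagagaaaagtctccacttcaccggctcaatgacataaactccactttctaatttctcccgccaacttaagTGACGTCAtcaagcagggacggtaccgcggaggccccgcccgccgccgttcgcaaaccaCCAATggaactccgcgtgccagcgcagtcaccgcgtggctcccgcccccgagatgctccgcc
Ell2: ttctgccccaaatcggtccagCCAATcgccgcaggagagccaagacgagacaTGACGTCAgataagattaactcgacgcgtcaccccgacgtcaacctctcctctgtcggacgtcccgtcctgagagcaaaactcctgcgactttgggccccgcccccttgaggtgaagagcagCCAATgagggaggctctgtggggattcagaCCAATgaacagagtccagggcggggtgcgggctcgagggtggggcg
Brdt: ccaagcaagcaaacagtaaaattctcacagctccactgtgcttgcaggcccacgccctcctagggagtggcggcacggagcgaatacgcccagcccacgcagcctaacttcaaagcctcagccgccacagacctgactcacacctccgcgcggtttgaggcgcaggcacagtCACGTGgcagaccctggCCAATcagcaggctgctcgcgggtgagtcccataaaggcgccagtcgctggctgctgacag
Hexim1: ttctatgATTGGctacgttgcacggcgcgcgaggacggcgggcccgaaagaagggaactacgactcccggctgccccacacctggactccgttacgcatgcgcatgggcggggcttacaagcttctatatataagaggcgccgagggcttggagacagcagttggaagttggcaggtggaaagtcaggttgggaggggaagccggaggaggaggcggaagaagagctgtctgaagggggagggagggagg
Aff1: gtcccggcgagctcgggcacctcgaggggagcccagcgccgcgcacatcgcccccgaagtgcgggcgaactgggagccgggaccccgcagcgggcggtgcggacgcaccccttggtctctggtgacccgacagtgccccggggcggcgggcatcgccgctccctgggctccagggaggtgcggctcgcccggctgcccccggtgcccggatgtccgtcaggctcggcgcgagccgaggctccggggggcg

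The full cyclic AMP response element stood in 2 of the 33 promoters, those of Larp7, with its first base 121 bases before the start, and of Ell2, 198 bases before it. Among all 32851 promoter entries 1.55% held it. Both genes were among the 5 with a sequence that fell, and none of the 9 genes that rose held it in this window. CCAAT was in 11 of the 33 genes, in 4 of the 5 that fell and in 4 of the 9 that rose, against 33.8% of all entries. CACGTG was in Supt16, Aff4 and Brdt, against 6.02% of all entries, and TATAAA was in Nelfb and Polr2a, against 12.4%. These letters describe the sequence and do not show that a factor binds there.

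Other genes of the same pathway, 57 in all and none of them among the 41, were read from a separate list. In adult testis 22 were higher, 26 were lower and 9 were not called by TMM, with a median log2 fold change of -0.06. By total counts 32 were higher and 14 lower. The shares of all genes were 40.9% and 40.6% by TMM and 54.1% and 30.0% by total counts. The highest among those called and not overlapping were Aff2, a further AFF scaffold, at 5.21 ± 0.40 (SE, adjusted p = 8.20e-05), which was at only 0.11, 0.1 and 0.15 FPKM in the controls and passed the filter through 10.5, 6.93 and 4.85 FPKM in the labelled knockouts, Mllt6 at 2.56 and Wdr82, a subunit of the SETD1 enzymes, at 1.89. The lowest were Elof1, an elongation factor, at -4.12, Ccnk, the cyclin of CDK12 and CDK13, at -4.07, and Med26, the Mediator subunit that recruits the super elongation complex, at -2.84. On the same scale the kinases of cyclin K, Cdk12 and Cdk13, were at -0.72 and -0.34. At day 7 none of the 57 was called by edgeR, with 8 at an unadjusted p under 0.05, against 15.5% of all genes, a median of -0.01, and 2 called by DESeq2, against 4.50% of all genes.

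In the day 7 Sertoli cells no difference in the 41 genes passed the test and most could be bounded within 2-fold. All were measured, and Ell3, at 0.28 and 0.37 FPKM in the controls and 0.29 and 0.36 FPKM in the knockout cells, was too low to be tested. The 40 others had a median log2 fold change of 0.07, against -0.00 for all genes, with 24 above 0 and 16 below. Apart from Tcea3, the largest absolute log2 fold change was 0.34. None reached 2-fold by TMM, where 675 of 12880 genes did, although Tcea3 was at 1.005 by the median ratio. The 95% interval lay within 2-fold for 38 of the 40 genes, all except Tcea3 and Brdt, and within 1.5-fold for 31 of them. TMM-scaled counts did not overlap, with knockout higher, for 12 genes and, with knockout lower, for 6 genes, where 24.8% and 26.1% of all genes did so. Spearman's rho between both groups' mean levels was 0.99 over the 41 genes.

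The members with the largest day 7 differences were Tcea3, Kmt2a, Tcea2, Hexim1 and Dot1l, followed by Ccnt1. Tcea3 was at 2.32 and 2.98 FPKM in the controls and 6.98 and 3.24 FPKM in the knockout cells (log2 fold change 0.999 ± 0.45 (SE), adjusted p = 0.379). Kmt2a was at 4.59 and 4.93 FPKM and 7.2 and 4.51 FPKM (log2 fold change 0.34 ± 0.24 (SE), adjusted p = 0.555). Knockout sample 1 was the highest of the 4 samples in both genes, and without it the log2 fold changes were 0.33 and -0.04. Without knockout sample 2 they were 1.45 and 0.63. Tcea2 was at 2.11 and 2.1 FPKM and 2.96 and 2.23 FPKM (log2 fold change 0.29 ± 0.26 (SE), adjusted p = 0.651), and at 0.08 without knockout sample 1. Hexim1 was at 16.8 and 14.5 FPKM and 11.7 and 13.3 FPKM (log2 fold change -0.28 ± 0.12 (SE), adjusted p = 0.366), with both knockout samples below both controls. Dot1l was at 30 and 31.1 FPKM and 25.1 and 25.5 FPKM (log2 fold change -0.24 ± 0.07 (SE), adjusted p = 0.270), also without overlap. Ccnt1 was at 9.06 and 8.58 FPKM and 9 and 7.4 FPKM (log2 fold change -0.24 ± 0.11 (SE), adjusted p = 0.378). None of these passed the test, and the intervals of Hexim1, -0.61 to 0.04, and of Dot1l, -0.43 to -0.04, leave changes over 2-fold outside.

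By complex, the day 7 log2 fold changes spanned 0.35 over the 6 PAF genes, 0.02 over FACT, 0.22 over DSIF, SPT6 and IWS1, 0.43 over P-TEFb, its inhibitors and the late kinases, 0.38 over the super elongation complex, 0.90 over TFIIS, 0.14 over NELF and 0.58 over the methyltransferases. Ctr9, at 19.1 and 18.7 FPKM in the controls and 21.3 and 20.9 FPKM in the knockout cells, had the highest value of PAF (log2 fold change 0.20 ± 0.08 (SE), adjusted p = 0.319). Cdk9, at 49.1 and 47.9 FPKM and 44 and 48.7 FPKM, was at -0.01, and Polr2a, at 43.6 and 42.7 FPKM and 36.4 and 43 FPKM, was at -0.08. Larp7, which fell in adult testis, was at 22.1 and 28.2 FPKM and 22.9 and 31.3 FPKM, at 0.15, with knockout and control samples mixed. Brdt was low in these cells, at 0.43 and 0.56 FPKM and 0.33 and 0.62 FPKM. Of the 9 paralog ratios, 6 did not overlap between groups at day 7, 4 higher and 2 lower, with an exact permutation p of 0.333, the smallest that 2 against 2 samples can give, and 0.50 after adjustment over the pairs. Of single genes, 24.8% and 26.1% did not overlap. The largest difference was 0.78 for Tcea3 over Tcea1, and the ratio of Ell2 to Ell was -0.06 and -0.15 among controls, compared with -0.31 and -0.69 among knockout cells.

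**Figure D5:**
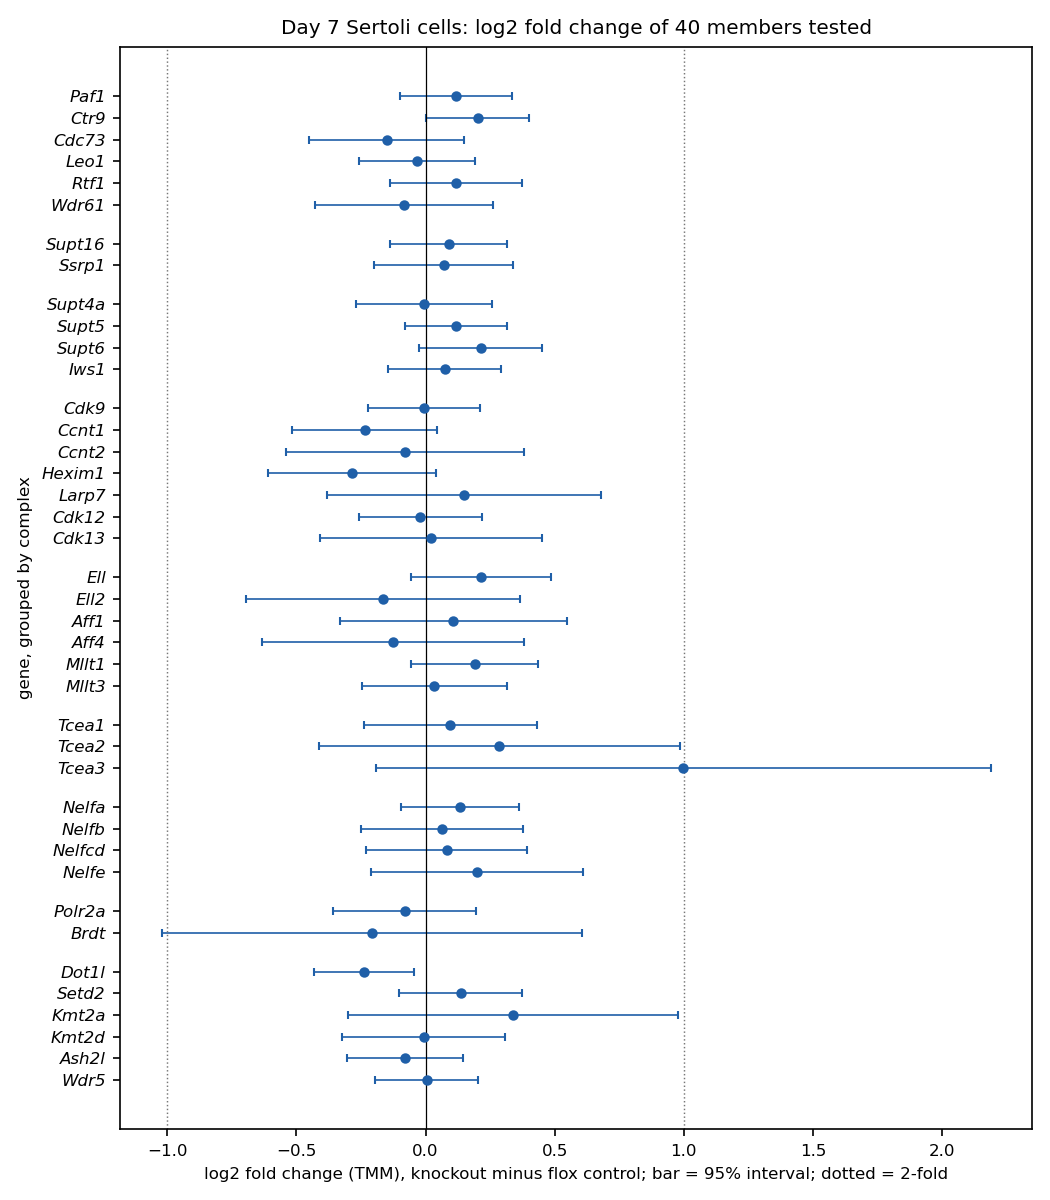
Log2 fold change (TMM, knockout minus control) of the 40 genes tested in day 7 Sertoli cells, 2 samples per group, grouped by complex, with 95% intervals and dotted lines at a 2-fold change. The intervals stay inside the dotted lines for all genes except Tcea3 and Brdt.

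The day 7 result turned on which knockout sample was used. Without knockout sample 1, 2 of the 40 genes were called higher and 7 lower, where 9.83% and 11.0% of all genes were called. Without knockout sample 2, 11 were called higher and 3 lower, where 20.2% and 17.5% of all genes were called. Ell2 was at -0.45 and Aff4 at -0.41 without sample 1, and Kmt2a was at 0.63 and Supt6 at 0.29 without sample 2. Dot1l was called lower both ways, at -0.22 (adjusted p = 0.0199) and -0.26 (adjusted p = 0.00958), although such fits compare a single knockout sample with the controls and take its spread from them. The labels do not tie samples of a group to separate animals, so p-values measure the spread between these samples.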

How the data were processed

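RNA-seq was read from 10 mouse samples in 2 tables. For the day 7 cells the methods name 3 individuals per group, and the fits here used 2 samples of each group. The authors filtered BGISEQ reads of oligo(dT)-selected RNA and aligned them with HISAT and Bowtie2 to a build that the labels give as GRCm38.p6. They deposited estimated counts per gene together with TPM values and with FPKM values, the last of which the study assigns to RSEM. Which strand was counted, and tool versions, are not given in the sources used here. The authors set FPKM and TPM against each library's total, and TPM and 20 columns without values were not used.

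Estimated counts, as deposited, were rounded to whole numbers. In each library between 10.7% and 13.2% of genes held a deposited count that was not whole. Genes with at least 0.5 FPKM in enough samples for one group were tested in each table separately with the quasi-likelihood test of edgeR 4.0.16 (R 4.3.3), TMM scaling and Benjamini-Hochberg adjustment over all genes tested, with 2 samples per group at day 7 and 3 in adult testis. Depth was 15431935 to 17705359 counts per sample and limits genes under about 0.5 FPKM. DESeq2 1.42.0, limma 3.58.1 on log2(FPKM + 0.1) or log2(FPKM + 1), 2 other scalings, 2 other filters, the thresholds of the study, a replicate block and leaving out each sample were the alternatives. Paralog ratios used log2 of FPKM + 0.1 within a library and exact two-sided permutation tests (scipy 1.17.1). Scripts were tested on counts simulated from the means and dispersions of each table, with 100 genes changed at each of 2 sizes. At day 7 edgeR recovered 68 of 100 genes at an absolute log2 fold change of 1 and 98 at 2, with 18 false calls. For adult testis it recovered 0 and 48, with 1 false call. So few changed genes differ from the adult data, so these rates need not hold there. A gene that was not called is not thereby shown to be unchanged.

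The 41 genes, the 57 other pathway genes, the marker lists and the paralog pairs were chosen with earlier results of these data known. All 41 genes were to be named, with values in every sample for those called without overlap, the 5 largest changes per table and both genes of each pair, and the 3 largest rises and falls of the 57. One pair fixed for the paralog ratios is not reported here, and p-values were adjusted over the others.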

Additional observations from a re-analysis of the deposited data

Results flagged for a closer look

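Hexim1, Mllt1, Tcea2 and Nelfa met a fixed rule for flagging. Every knockout sample lay on one side of every control in adult testis and on the opposite side at day 7, on both TMM-scaled counts and FPKM. These were 4 of the 40 genes tested in both tables, or 10%, where 14.5% of all 12378 such genes did the same. The pattern was thus no more common among these genes than among all genes. The difference between the tables was not tested, and at day 7 none of the 4 passed the test. Hexim1 had a log2 fold change of 2.11 in adult testis and -0.28 at day 7. Mllt1 had -2.17 in adult testis and 0.19 at day 7. Tcea2 had -4.79 in adult testis and 0.29 at day 7, where it was 0.08 without knockout sample 1. Nelfa had -1.17 in adult testis by TMM, -0.31 by total counts, and 0.13 at day 7. The adult samples were whole testis and the day 7 samples cultured Sertoli cells, so age and tissue cannot be told apart in this contrast.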

How the results depend on the processing

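In adult testis 17 of the 41 genes, 9 higher and 8 lower, kept their direction and an adjusted p under 0.05 under every other scaling, filter, tool and left-out sample and with the replicate block. Counts of genes called higher were 10 by TMM, 23 by total counts, 22 by limma on log2(FPKM + 0.1), 22 by limma on log2(FPKM + 1) and 4 at the thresholds of the study. Counts called lower were 18 by TMM and 8, 8, 9 and 9 under the same 4 settings. Limma called 53.5% of all genes higher and 30.7% lower with the pseudocount of 0.1, and 53.6% and 31.2% with that of 1. Leaving out 1 adult sample gave 9 to 15 higher and 14 to 16 lower. Ctr9 lost its call in every such fit, Wdr61, Ssrp1 and Supt5 in every one but that without labelled knockout 1, Cdk13 in every one but that without labelled knockout 2, and Ell without labelled knockout 2 or 3. At day 7, leaving out 1 sample gave 0 to 11 higher and 0 to 7 lower, with 2 higher and 7 lower without knockout sample 1, 11 higher and 3 lower without knockout sample 2, and none without either control. Of the other pathway genes in adult testis, 22 were higher and 26 lower by TMM. Total counts gave 14 lower, limma 14 and 15 lower with pseudocounts of 0.1 and 1, the thresholds of the study 11 higher and 16 lower, and leaving out 1 sample 19 to 24 higher and 24 to 26 lower. At day 7 DESeq2 called 1 of them higher and 1 lower, and leaving out 1 sample gave 0 to 11 higher and 0 to 10 lower, with 6 and 6 without knockout sample 1 and 11 and 10 without knockout sample 2. Paralog pairs that did not overlap numbered 6 to 9 at day 7 when 1 sample was left out, with 9 of 9 without knockout sample 2.

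Changes of sign are given for genes called by TMM or by the alternative, and the cause was not tested beyond the scaling itself. By total counts in adult testis the log2 fold changes were 0.40 for Ctr9, 0.54 for Cdc73, 0.26 for Leo1, 0.78 for Rtf1, 0.71 for Supt16, 0.45 for Ssrp1, 0.32 for Supt5, 0.78 for Ccnt1, 0.14 for Cdk12, 0.52 for Cdk13, 0.11 for Ell and 0.62 for Wdr5. By limma with a pseudocount of 0.1 they were 0.37 for Ctr9, 0.26 for Leo1, 0.76 for Rtf1, 0.70 for Supt16, 0.45 for Ssrp1, 0.25 for Supt5, 0.54 for Ccnt1, 0.45 for Cdk13, 0.17 for Ell and 0.64 for Wdr5. With a pseudocount of 1 they were 0.35 for Ctr9, 0.25 for Leo1, 0.71 for Rtf1, 0.66 for Supt16, 0.44 for Ssrp1, 0.25 for Supt5, 0.47 for Ccnt1, 0.43 for Cdk13, 0.16 for Ell and 0.60 for Wdr5. At day 7 Cdk13 was at -0.21 without knockout sample 1 and at 0.21 without knockout sample 2.

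Samples with the same replicate number deviated together only weakly, and whether the numbers pair the samples cannot be told from these values. Correlations of same-numbered samples' deviations were 0.018, 0.018 and 0.026 in adult testis, each the highest for its number, and 0.037 at day 7. With 2 samples per group at day 7, differently numbered samples necessarily gave the same size with the opposite sign, -0.037. With the replicate block 9 genes were called higher and 14 lower in adult testis and none at day 7, and Ctr9, Wdr61, Ssrp1, Supt5 and Cdk13 were the calls lost. At day 7, with 2 samples per group, the median standard error was 0.105 in log2 units, and the intervals given bound what could be seen.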
